A study of Mus musculus with 4 samples.

Results

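The Tead transcription factors, their coactivators and a set of Hippo pathway genes were read in whole brains of mouse embryos with Cre-mediated deletion of Sox4 and Sox11, against control embryos. The genes were Tead1, Tead2, Tead3, Tead4, Yap1, Wwtr1, Amotl1, Amotl2, Ccn1 and Ccn2, and every probe set carrying exactly one of these symbols in the annotation of the array was taken. This gave 20 probe sets for 10 genes, out of 45037 probe sets and 18193 genes on the array. The 2 double-knockout arrays came from embryos with floxed alleles of Sox4 and Sox11 on both chromosomes together with Brn4::Cre, and the 2 control arrays from embryos with the same floxed alleles and no Cre. Brn4 is another name for Pou3f4. Recombination is thus limited to cells in which that driver was active and their descendants, and other cells of the brain keep both genes. All embryos were taken at embryonic day 14.5, and their background was mixed 129SvJ/C57Bl/6J. The labels name whole brain for every array, while the series title speaks of the spinal cord. They do not say whether an array held 1 embryo or a pool, so p-values cover only the spread between the arrays at hand.

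Tead proteins bind DNA through a TEA domain and need coactivators to switch genes on. The main coactivators are Yap1 and Wwtr1 (also called Taz), which do not bind DNA themselves. Kinases of the Hippo pathway, Stk3 and Stk4 and then Lats1 and Lats2, phosphorylate both coactivators and keep them out of the nucleus, and angiomotin-like proteins hold them at cell junctions. Ccn1 and Ccn2, secreted matricellular proteins, are standard readouts of Yap1 and Tead activity in many cell types. In the embryonic neural tube this pathway is known for its activity in radial glia and other progenitors, and Tead2 has been described as a gene that SoxC proteins regulate in mouse embryos.

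Values are MAS5 signals on a linear scale, and changes are differences of log2(signal + 16), knockout minus control, so those of dim probe sets are understated. Median signals were 263.2 and 268.6 on the knockout arrays and 286.7 and 262 on the control arrays. Across probe sets, the correlation of log2 signals was r = 0.987 within the knockout pair, 0.984 within the control pair and 0.960 to 0.963 between arrays of different genotype, as a description of the arrays only. Of the targeted genes, all 6 Sox11 probe sets fell, while 4 of 6 tested Sox4 probe sets fell and 1, 1419157_at, rose (log2 change 1.83). The brightest Sox4 probe set, 1433575_at, did not pass (0.09, limma adjusted p = 0.242), so Sox4 read at its brightest probe set was not lower in knockouts. The lowest signal of 12 neuronal marker genes on any array was 4549, and that of 13 radial glia and progenitor markers 526.5, but these genes are expressed in brain and spinal cord alike. Emx2 and Otx2, transcription factors of the forebrain and midbrain, looked at after the data were seen, had signals of at least 1396 and 2462 on every array. Otx2 fell in knockouts (log2 change -0.51, limma adjusted p = 0.00548), while Emx2 did not pass (0.01).

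Among the 9 genes bright enough to be tested, the coactivator Wwtr1, the transcription factor Tead1 and the matricellular gene Ccn1 rose in knockout brains, and both angiomotin-like genes, Amotl1 and Amotl2, fell. Tead2, Tead3, Yap1 and Ccn2 did not pass the test, and Tead4 was too dim to be tested. The test was limma with Benjamini-Hochberg adjustment over 27022 probe sets at an adjusted p under 0.05, and each gene was read at its brightest probe set. By this rule 3 of 9 genes rose and 2 fell, where 16.3% of all 12489 genes tested rose and 11.0% fell, 27.3% together. Counted by probe set, 4 of 16 tested rose and 2 fell, against 23.2% of all probe sets that changed in either direction. The median log2 change of the 9 genes was 0.19, beside 0.06 for all genes tested. The groups did not overlap at 8 of the 9 genes, which was so at 66.9% of all genes. The number of these genes that rose was 2 without control 1 and 1 without control 2, knockout 1 or knockout 2, and the number that fell was 1 without knockout 1. In whole-tissue RNA, fewer cells of a type and less RNA per cell cannot be told apart.

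**Figure D1:**
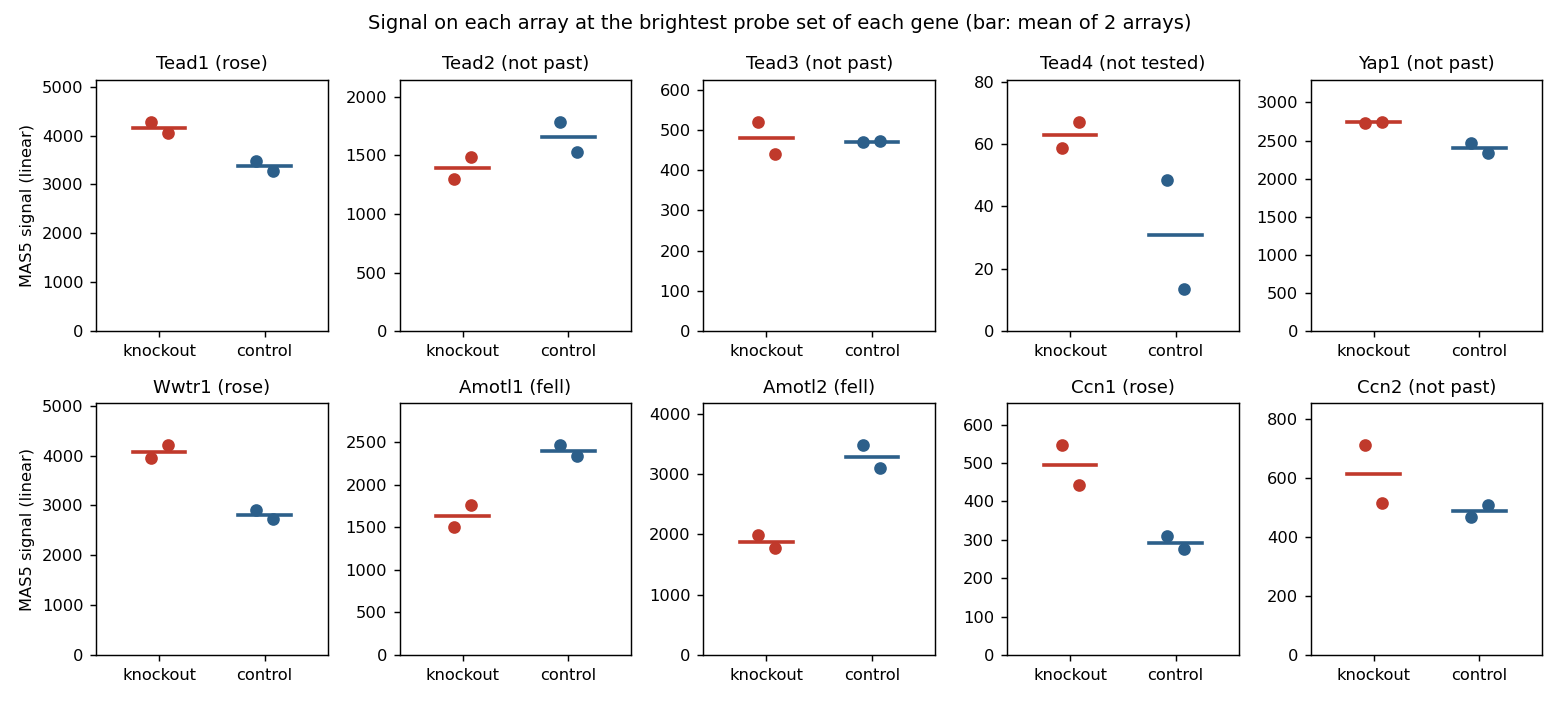
MAS5 signal (linear scale, each panel from 0) on the 2 knockout and 2 control arrays at the brightest probe set of each gene, with a bar at the mean of each pair. Both knockout arrays lie above both control arrays for Tead1, Yap1, Wwtr1, Ccn1, Ccn2 and the dim Tead4, and below them for Tead2, Amotl1 and Amotl2, while the Tead3 arrays overlap.

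Of the DNA-binding factors, Tead1 alone passed the test. Its brightest probe set, 1429556_at, had signals of 4285 and 4044 on the knockout arrays, against 3480 and 3271 on the control arrays. Both knockout arrays were thus above both controls, by 0.30 ± 0.09 on the log2 scale (SE; limma adjusted p = 0.0373). This call was lost with any single array left out, at changes of 0.26 to 0.35 and adjusted p of 0.0721 to 0.181. The other Tead1 probe set, 1423434_at, was under the signal filter, at 97.1 and 86.3 in knockouts and 95.7 and 111.4 in controls, where the groups overlapped.

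Tead2, whose transcript is abundant in neural progenitors of the mouse embryo, had signals of 1294 and 1488 on the knockout arrays, against 1786 and 1524 on the control arrays at 1448519_at. Both knockout arrays were lower, although the nearest arrays of the groups, knockout 2 and control 2, were close. The log2 change of -0.25 ± 0.13 did not pass (SE; limma adjusted p = 0.198), and its 95% interval ran from -0.53 to 0.04. An equal level and a loss of that size both lie within the interval. The RefSeq promoter window of Tead2 is shown because, among the genes studied here that have a window, it alone held either of the Sox motifs searched. Other sequences of the kind that Sox proteins bind were not searched for. The window, chr7:45215542-45215841 of GRCm38.p6 on the plus strand, covers 250 bases before the transcript start and 50 after it. Capitals mark AACAAAG, a sequence of the kind bound by Sox proteins, on the strand of the gene at bases -29 to -23 from the start.
Tead2: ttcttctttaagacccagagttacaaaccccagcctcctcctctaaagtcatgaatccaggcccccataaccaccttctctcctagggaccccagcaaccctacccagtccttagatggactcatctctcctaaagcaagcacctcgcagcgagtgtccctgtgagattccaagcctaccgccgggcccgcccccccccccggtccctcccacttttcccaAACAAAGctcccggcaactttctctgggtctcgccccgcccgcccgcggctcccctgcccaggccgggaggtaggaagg
On either strand, AACAAAG was present in 5.85% of all 32851 RefSeq windows of this length, and a second Sox-type motif, AACAAT, in 10.7%. AACAAT was in none of the windows of the genes studied here. A match describes the letters only, and binding was not measured.

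Tead3 stood at 520.8 and 440.4 on the knockout arrays and 470.2 and 472.2 on the control arrays, a log2 change of 0.02 ± 0.17 (SE; 95% interval -0.35 to 0.40). The control values lay between those of the knockouts, and a change within this interval would not have been detected. Both Tead4 probe sets were under the filter of 154.6 for the mean signal. The brighter, 1426337_a_at, read 58.9 and 67.2 in knockouts and 48.5 and 13.4 in controls, and the dimmer, 1460683_at, 13.7 and 26.9 against 15.1 and 15.7.

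The 3 genes whose profile over the arrays lay nearest to that of Tead2 are listed as a description only. The same 4 arrays gave both profile and change, so a near profile brings a similar change with it. Likeness was the root mean square distance between log2 values centred on each gene's mean over the 4 arrays, among 12480 other genes. The nearest were Setdb2 (distance 0.008, log2 change -0.24), Cdh8 (0.017, -0.28) and Nemp2 (0.021, -0.21).

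The coactivator Wwtr1 rose, and its 3 probe sets gave almost the same change. At the brightest, 1417818_at, signals were 3954 and 4205 on the knockout arrays, against 2898 and 2724 on the control arrays. The means were 4080 ± 177 in knockouts and 2811 ± 123 in controls (SD, n = 2 each). This was a rise of 1.45-fold, or 0.53 ± 0.09 on the log2 scale (SE; adjusted p = 0.00292 in limma). It passed in all 14 alternative settings run, at changes of 0.49 to 0.58. At 1417817_a_at the signals were 953.3 and 800.2 in knockouts and 686.6 and 540.6 in controls, and this probe set rose by 0.51 ± 0.17 (adjusted p = 0.0497). At 1437155_a_at they were 809.5 and 735.8 in knockouts and 619.9 and 449.6 in controls, and the change of 0.53 ± 0.18 did not pass (adjusted p = 0.0532). Knockout arrays were above control arrays at all 3. The 1417817_a_at call was lost without control 2 (0.34), knockout 1 (0.38) or knockout 2 (0.63), and 1437155_a_at passed without control 1 (0.76). Of all genes tested, 1304 had a larger rise than Wwtr1.

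Yap1, the paralog of Wwtr1, had signals of 2736 and 2747 on the knockout arrays, against 2471 and 2338 on the control arrays at 1448363_at. Both knockouts were above both controls, by a log2 change of 0.19 ± 0.10 that did not pass (SE; limma adjusted p = 0.194; 95% interval -0.03 to 0.41). The dim probe set 1416487_a_at read 165.3 and 178.4 in knockouts and 164.4 and 162.3 in controls, a log2 change of 0.07 ± 0.27. Whether Wwtr1 and Yap1 differed from each other in their change was not tested.

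**Figure D2:**
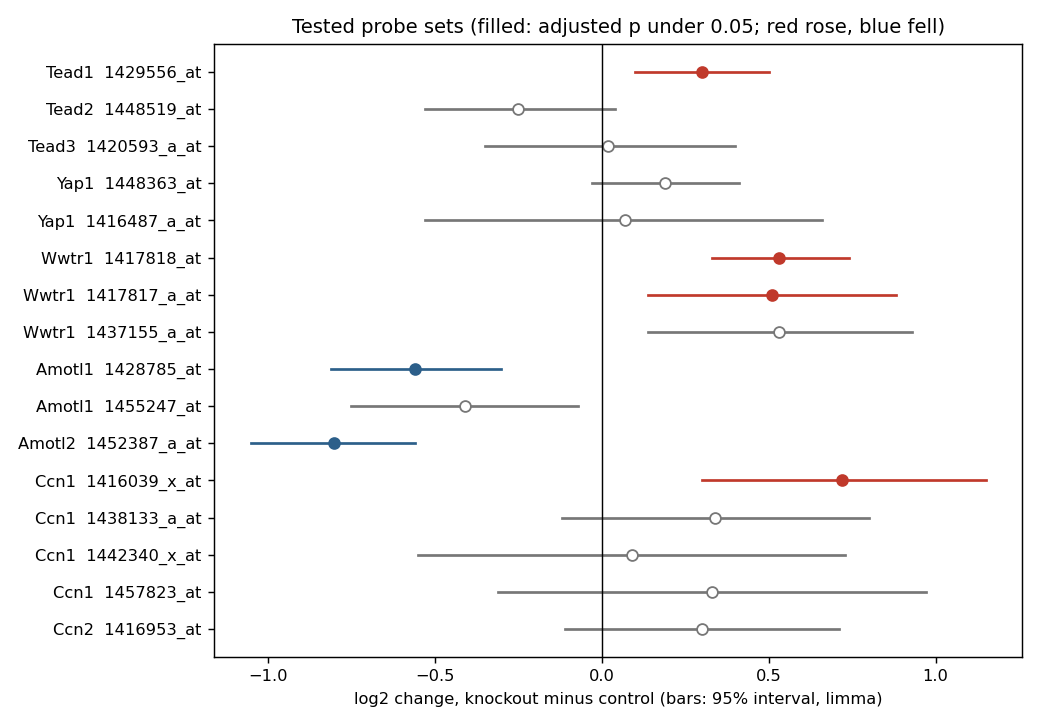
Log2 change, knockout minus control, of the 16 tested probe sets, with 95% intervals from limma. Filled points passed at an adjusted p under 0.05, in red for those that rose and blue for those that fell. The 3 Wwtr1 probe sets lie between 0.51 and 0.53, while the 4 Ccn1 probe sets spread from 0.09 to 0.72.

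The angiomotin-like genes encode scaffolds of cell junctions that bind Yap1 and Wwtr1 and can keep them in the cytoplasm, and both fell. Amotl2 had signals of 1988 and 1768 on the knockout arrays, against 3477 and 3102 on the control arrays at its only probe set, 1452387_a_at. The means were 1878 ± 155 in knockouts and 3290 ± 265 in controls (SD, n = 2 each), and the gap between the groups was wider than either pair. The log2 change was -0.80 ± 0.11 (SE; limma adjusted p = 0.000782), a 1.75-fold fall, and 338 of 12489 genes fell further. It passed in all 14 alternative settings run, at changes of -0.89 to -0.72.

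Amotl1 had signals of 1500 and 1759 on the knockout arrays, against 2460 and 2333 on the control arrays at 1428785_at. Both knockout arrays were below both controls, and the log2 change of -0.56 ± 0.12 passed (SE; limma adjusted p = 0.00716; 1.47-fold). The call was lost without knockout 1 (-0.44, adjusted p = 0.0587) and without the trend of variance with signal (-0.56, adjusted p = 0.0555). At 1455247_at the signals were 509.3 and 575.8 in knockouts and 695.1 and 759.2 in controls, again without overlap, and the change of -0.41 ± 0.15 did not pass (adjusted p = 0.0768). The third probe set, 1431121_at, was under the filter, at 72.2 and 19.9 in knockouts and 94.5 and 71.7 in controls.

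Of Ccn1 and Ccn2, the classical targets of Yap1 and Tead, Ccn1 passed at 1 of its 4 probe sets and Ccn2 at none. Ccn1 had signals of 546.4 and 442.8 on the knockout arrays, against 309.3 and 274.9 on the control arrays at the brightest of them, 1416039_x_at. It rose there by 0.72 ± 0.19 on the log2 scale (SE; limma adjusted p = 0.0223), or 1.65-fold. The other 3 Ccn1 probe sets did not pass. Signals at 1438133_a_at were 328.7 and 317.2 in knockouts and 263.4 and 239.8 in controls (log2 change 0.34 ± 0.21), and the remaining pair changed by 0.33 ± 0.29 and 0.09 ± 0.29. Averaged over its 4 probe sets the gene changed by 0.37 (adjusted p = 0.222). The call was also lost without control 2 (0.64, adjusted p = 0.0508), knockout 1 (0.58, adjusted p = 0.17) or knockout 2 (0.87, adjusted p = 0.0575). The x in the name of the brightest probe set marks probes that can also detect other transcripts.

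Ccn2 had signals of 710.8 and 514.2 on the knockout arrays, against 467.8 and 509.0 on the control arrays at its only probe set, 1416953_at. Knockout 2 lay barely above control 2, while knockout 1 stood apart. The log2 change of 0.30 ± 0.19 did not pass (SE; limma adjusted p = 0.273; 95% interval -0.11 to 0.71), and it was 0.07 without knockout 1 and 0.53 without knockout 2. By the same measure of likeness, the genes nearest to Ccn2 were Rgl3 (distance 0.016, log2 change 0.29), Slc14a2 (0.017, 0.33) and Rab4a (0.022, 0.31), again as a description only.

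Promoter windows are shown for 3 of the genes that changed, Wwtr1, Amotl2 and Ccn1, because each held CATTCC, the core of the element that Tead proteins bind. RefSeq windows were at hand for 7 of the 10 genes, and Tead1, Tead4 and Ccn2 had none. CATTCC, on either strand, was present in at least 1 window of 5 of the 7, namely Tead3, Yap1, Wwtr1, Amotl2 and Ccn1. Among all 32851 windows, 14.7% held it. The 5 of 7 counts genes while the 14.7% counts windows, so they cannot be compared directly. The 7 genes have 10 windows, and a gene with several windows has more chances of a match. Of the 5 genes with CATTCC, Wwtr1 and Ccn1 rose, Amotl2 fell, and Tead3 and Yap1 did not pass. Amotl1, which fell, held none of the 3 motifs searched, and the motifs do not overlap in the windows. Wwtr1 has 2 windows, of which 1 is shown, chr3:57575861-57576160, minus strand, with the motif on the opposite strand at bases -136 to -131, read there as GGAATG. Those of Amotl2, chr9:102717554-102717853, plus strand, and Ccn1, chr3:145649936-145650235, minus strand, hold it on the strand of the gene at bases -65 to -60 and -103 to -98. All are in GRCm38.p6, read 5′ to 3′ along the gene, with the motif in capitals.
Wwtr1: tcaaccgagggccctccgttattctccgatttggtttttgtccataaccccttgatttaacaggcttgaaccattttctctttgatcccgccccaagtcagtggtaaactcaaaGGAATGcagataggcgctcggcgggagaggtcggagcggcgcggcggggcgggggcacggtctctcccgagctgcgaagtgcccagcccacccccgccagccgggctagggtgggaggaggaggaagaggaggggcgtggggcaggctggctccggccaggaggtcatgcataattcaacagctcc
Amotl2: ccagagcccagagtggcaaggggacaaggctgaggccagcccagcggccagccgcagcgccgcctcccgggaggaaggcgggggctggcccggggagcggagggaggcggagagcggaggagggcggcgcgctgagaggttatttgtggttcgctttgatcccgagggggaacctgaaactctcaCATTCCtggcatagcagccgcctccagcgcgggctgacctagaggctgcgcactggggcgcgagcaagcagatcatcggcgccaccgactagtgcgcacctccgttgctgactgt
Ccn1: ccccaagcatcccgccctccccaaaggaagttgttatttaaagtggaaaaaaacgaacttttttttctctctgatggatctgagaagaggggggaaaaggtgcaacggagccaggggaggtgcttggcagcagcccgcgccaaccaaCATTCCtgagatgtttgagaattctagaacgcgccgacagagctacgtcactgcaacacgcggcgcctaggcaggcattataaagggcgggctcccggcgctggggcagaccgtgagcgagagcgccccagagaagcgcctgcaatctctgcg
Occupancy by Tead proteins was not measured, so a match is a description of the letters.

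Most kinases and scaffolds upstream of Yap1 and Wwtr1 did not pass the test. Of 26 listed Hippo regulators, 24 had a probe set with that symbol alone, and all 24 were tested. Of these, 2 rose, 2 fell and 20 did not pass, or 16.7% called, where 27.3% of all genes were. Their median log2 change was 0.03. Ajuba, a LIM protein that restrains Lats kinases, rose by 0.54, and Tjp1, a tight-junction scaffold, by 0.35. Dchs1, a large cadherin that pairs with Fat4, had a log2 change of -0.55, and Map4k4, a kinase that acts on Lats kinases, one of -0.53, and both fell. Map4k4 had 4 tested probe sets, of which 2 fell and 2 did not pass. Of the core kinases, Stk4 (-0.02), Lats1 (0.06) and Lats2 (-0.10) did not pass. Stk3 had no probe set with that symbol alone and was not read. Without knockout 1, 1 regulator rose and 1 fell, without knockout 2, 1 rose, and without control 1, 1 fell. Dchs1 lost its call without control 1 (-0.49) or knockout 1 (-0.40), and Ajuba without knockout 1 (0.56) or knockout 2 (0.51).

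Among cofactors of Tead and genes that mark Yap1 and Wwtr1 for destruction, 8 of 12 listed were tested, with a median log2 change of -0.04. Of these, 1 fell and 1 rose, and 2 of 8 is close to the 27.3% of all genes. Csnk1e, a casein kinase of the group that helps trigger this destruction, had signals of 4874 and 4580 on the knockout arrays, against 8072 and 7864 on the control arrays. The groups were far apart, and the log2 change was -0.75 ± 0.08 (SE; limma adjusted p = 0.000198), and its second tested probe set fell too (-0.67). Wbp2, a WW-domain-binding coactivator, rose by 0.40, and this call was lost with any single array left out (0.36 to 0.45, adjusted p of 0.0558 to 0.111). The vestigial-like cofactors Vgll2 (0.37), Vgll3 (0.00) and Vgll4 (0.02), which compete with Yap1 for Tead proteins or cooperate with them, did not pass.

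Other widely used targets of Yap1 and Tead were called in both directions. Of 20 listed, 17 were tested: 3 rose, 2 fell and 12 did not pass, or 29.4% called, close to the 27.3% of all genes. Their median log2 change was 0.18, beside 0.06 for all genes tested. At an unadjusted p under 0.05 in limma, 6 of the targets rose and 2 fell. Birc5, an inhibitor of apoptosis that also acts in mitosis, had signals of 2746 and 2745 on the knockout arrays, against 1446 and 1525 on the control arrays, and rose by 0.88 ± 0.10 (SE; limma adjusted p = 0.000354). Igfbp3, a secreted binder of insulin-like growth factors, rose by 0.57, and Ajuba, also in the list of regulators, by 0.54. Rbms3, an RNA-binding protein, fell at all 4 of its probe sets, and signals at the brightest were 2074 and 2656 in knockouts and 4156 and 4275 in controls (log2 change -0.84 ± 0.12, adjusted p = 0.00101). Fjx1, whose counterpart in Drosophila phosphorylates Fat and Dachsous cadherins, fell by -0.74. Of these 5, Igfbp3 passed neither without control 1 (0.44) nor without knockout 1 (0.62) nor without knockout 2 (0.51), and a second Igfbp3 probe set did not pass (0.26). Without either knockout array 1 of the targets rose.

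Of the 4 other CCN genes, relatives of Ccn1 and Ccn2, 2 were tested, and Ccn3 had the largest log2 change among the tested genes of the 4 Hippo, Tead and CCN lists and of the 10 genes themselves. Its signals at 1426852_x_at were 1749 and 1782 on the knockout arrays, against 338.2 and 466.5 on the control arrays, with a wide gap between the groups. The log2 change was 2.11 ± 0.16 (SE; limma adjusted p = 4.79e-05), or 4.31-fold, and its second probe set, 1426851_a_at, rose by 1.89 ± 0.15. It passed in all 13 alternative settings run, at changes of 1.88 to 2.33. Ccn4 did not pass (0.08), and Ccn5 and Ccn6 were under the filter.

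**Figure D3:**
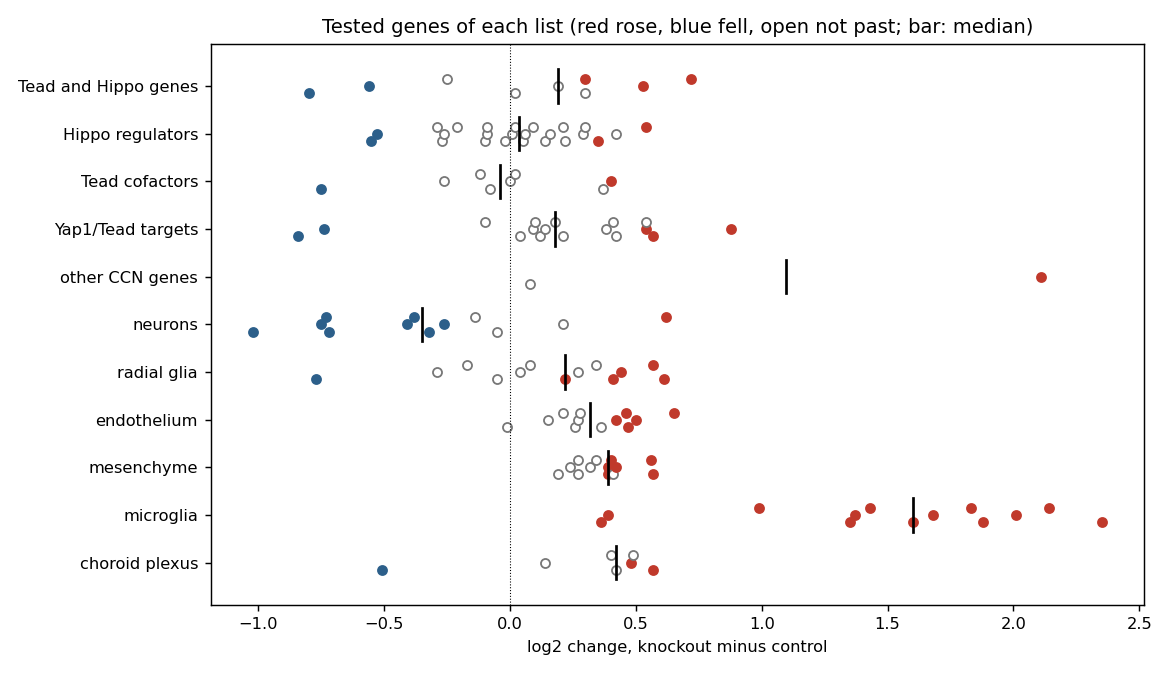
Log2 change, knockout minus control, of every tested gene at its brightest probe set, by list, with a bar at the list's median. Filled red points rose, filled blue points fell and open points did not pass. Hippo regulators centre on 0.03, Ccn3 stands at 2.11, and all 13 microglial markers lie above 0.

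Markers of several cell types moved alongside these genes, and their counts stand beside the 16.3% of all genes that rose and the 11.0% that fell. Of endothelial markers 5 of 12 rose and 0 fell in limma (6 and 0 at an unadjusted p under 0.05), and their summed signal was 18648 to 19297 on the knockout arrays, against 15071 to 15618 on the control arrays. The endothelial count was 0 without control 1 or knockout 1 (4 at an unadjusted p under 0.05 in each) and 1 without knockout 2. Of markers of pericytes, meninges and mesenchyme, 6 of 13 rose and 0 fell (9 and 0 at an unadjusted p under 0.05), with summed signals of 47431 to 48970 in knockouts and 35636 to 37687 in controls, and 3 rose without control 1 or knockout 2. All 13 markers of microglia and macrophages rose, with sums of 26527 to 28626 in knockouts and 9235 to 10233 in controls. The smallest rises, of Mrc1 (0.39, limma adjusted p = 0.0444) and Pf4 (0.36, limma adjusted p = 0.0451), were near the threshold. Fewer microglial markers passed with any single array left out. Of radial glia and progenitor markers 5 of 13 rose and 1 fell, with sums of 89671 to 90892 in knockouts and 81619 to 86515 in controls. The radial glia count that rose was 2 without control 2 and 1 without knockout 1 and 3 without knockout 2. Of neuronal markers 8 of 12 fell and 1 rose, with sums of 144554 to 149045 in knockouts and 184986 to 187873 in controls. Fewer neuronal markers fell with any single array left out. Of choroid plexus markers 7 of 8 were tested, 2 rose and 1, Otx2, fell, with sums of 48036 to 51395 in knockouts and 45251 to 45720 in controls. Summed signals follow the brightest genes of a list. Ttr alone read 43852.1 and 40127.3 in knockouts and 38107.5 and 38225.7 in controls, and did not pass (log2 change 0.14). The choroid count that rose was 1 without either knockout array. Without the variance trend 1 endothelial, 1 mesenchymal, 1 radial glia and 1 choroid marker rose, 0 choroid markers fell (1 at an unadjusted p under 0.05 in limma), 11 microglial markers rose and 4 neuronal ones fell. No marker was at 0. Any genes that rose, or that fell, did so in the same arrays, since only knockout and control were compared. Wwtr1, Tead1 and Ccn1 share a direction with the markers that rose, and Amotl1 and Amotl2 with those that fell, whatever the cell type. The part of the marker shifts in the changes of the Tead and Hippo genes was not tested.

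**Figure D4:**
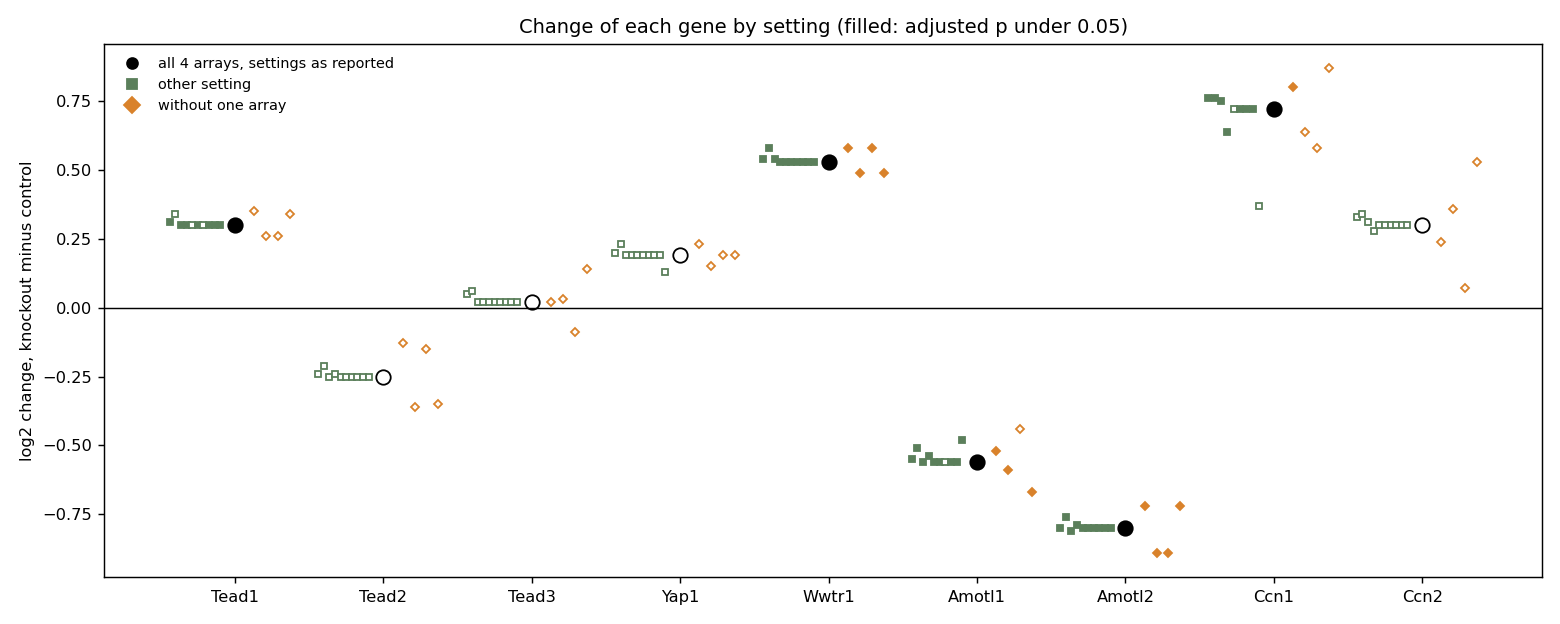
Log2 change, knockout minus control, of the 9 tested genes under the settings as reported (black circles), the alternative settings (green squares) and with a single array left out (orange diamonds). Filled points passed at an adjusted p under 0.05. Wwtr1 and Amotl2 are filled throughout, while Tead1 is open with each array left out and Ccn2 spreads from 0.07 to 0.53.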

How the data were processed

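Total RNA of whole brains was labelled with biotin in an amplification step from 100 ng, per the labels' protocols, and hybridised to 1-colour Affymetrix arrays. The authors deposited linear intensities per probe set. Per the submitters' processing notes, these are from MAS5 5.0. The mean of each array trimmed by 2% at either end was 1000, so arrays had been scaled alike, which removes a shift of most transcripts. No genome build is named in the labels. No detection calls were used. Of 45101 probe sets, 64 controls were left out, and 34945 had 1 gene symbol in the platform annotation. All 10 genes matched a RefSeq gene by ID.

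Signals were taken as log2(signal + 16). Probe sets above the 40th percentile of the mean over all arrays were kept (log2 of 7.41, signal 154.6), which left 27022. Knockout minus control was fitted in limma 3.58.1 under R 4.3.3 with a variance trend (residual degrees of freedom 2, prior 8.33), with Benjamini-Hochberg adjustment at 0.05. The steps were tested on simulated data. The number of arrays limits the precision. Promoter windows came from RefSeq. Genes, lists and tests were chosen with earlier results of these data known. Named genes are the 10 members, of each pathway list those past the threshold (at most 6), and the 3 nearest in profile to Tead2 and to Ccn2. Stk4, Lats1, Lats2, the vestigial-like genes and Ccn4 were named after their values were seen. Replicate numbers do not pair the arrays (differences within pairs correlated with r = 0.0028). The alternatives were pseudocounts of 1 and 64, quantile normalization, centring on medians, the 60th percentile or no filter, no variance trend, robust variance, a replicate block, single arrays left out, and probe sets averaged by gene.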

Additional observations from a re-analysis of the deposited data

How the results depend on the processing

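Wwtr1 and Amotl2 passed in every alternative run. Without the variance trend 1471 probe sets rose and 1643 fell, against 3152 and 3125 with it. In that setting 2 probe sets of the Tead and Hippo genes rose and 1 fell, 1 gene fell, 1 Hippo regulator rose and 1 fell, and 0 cofactors rose (limma; 1 at an unadjusted p under 0.05). Without the signal filter 1 probe set, of Wwtr1, and so 1 gene rose, 1 Hippo regulator fell and 2 cofactors rose (Wbp2 and Tbx5). With median centring 6 Yap1 and Tead targets rose, and Tead1 did not pass (0.34). With the replicate block, where the arrays share only a number, 3414 probe sets rose and 3430 fell, 5 probe sets of the Tead and Hippo genes rose (1437155_a_at of Wwtr1 added, 0.53) and 2 fell, and the calls of the 10 genes were those without it. With single arrays left out, 1458 to 2611 probe sets rose and 1674 to 2811 fell, 1 to 4 probe sets of the Tead and Hippo genes rose and 1 to 2 fell, and 1 to 2 of the genes rose and 1 to 2 fell. Of the lists, 1 to 3 Hippo regulators rose and 1 to 3 fell, 0 cofactors rose (1 to 2 at an unadjusted p under 0.05), and 1 to 4 targets rose. Tead3 ranged from -0.09 (without knockout 1) to 0.14, and 1442340_x_at of Ccn1 from -0.10 (without control 2; -0.06 without knockout 2) to 0.29, none past the threshold. The cause of these shifts was not tested. Over all settings and single probe sets, 311 changes kept direction and side of the threshold, 35 lost the call, 6 gained it and 3 turned sign. The 311 include probe sets that had not passed in the main fit, and list genes that were named because they passed. That number is therefore no measure of how stable the calls were. Tead4 lay under the signal filter and had no test, and no Ccn1 probe set was kept at the 60th percentile.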

Other observations

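Among the list genes under the signal filter, 8 in all, 2 passed when limma was run without a filter, and both were higher in knockouts. Of all 45037 probe sets in that fit, 2169 rose and 2148 fell. Control signals of the 2 genes were only 13.3 to 24.0 and no detection calls were used, so the sizes of their changes are uncertain. Myof, a membrane-repair protein of the ferlin family that is on the list of Yap1 and Tead targets, had signals of 181.3 and 138.5 on the knockout arrays, against 22.1 and 15.5 on the control arrays (log2 change 2.33 ± 0.40, SE; limma adjusted p = 0.0145). Tbx5, a T-box factor that can act with Yap1, had 105.9 and 100.9 in knockouts and 13.3 and 24.0 in controls (1.80 ± 0.41, adjusted p = 0.0377). Runx1, a transcription factor of blood cell development, had 110.7 and 237.5 in knockouts and 18.1 and 72.3 in controls and did not pass (1.71 ± 0.57, adjusted p = 0.119). All 3 were named after their values were seen. The brighter Tead4 probe set changed by 0.86 ± 0.50 in that fit (adjusted p = 0.357). Ankrd1, a strongly induced target of Yap1 in many cultured cells, stood at 35.1 and 77.2 in knockouts and 44.0 and 32.7 in controls, where the groups overlapped.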
